A study of Homo sapiens with 12 samples.

Results

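The genes described here were 10 feedback genes of the ERK pathway, namely the phosphatase genes DUSP4, DUSP5 and DUSP6, the Sprouty genes SPRY1, SPRY2 and SPRY4, the Sprouty-related genes SPRED1 and SPRED2, and the transcription factor genes ETV4 and ETV5. They were taken by symbol and made up 10 of the 58174 genes listed for each cell line. The set was selected on measured values, namely the siI1 to siC differences of DUSP6, SPRY4 and ETV5, which were large and negative in Hep-G2 and not in BE(2)-C. All siI1 to siC differences of the 10 genes are therefore given as a description and were not tested. The study depleted IGF2BP1, an RNA-binding protein of fetal tissues and tumors that binds mRNAs and alters their turnover, in Hep-G2, a liver tumor line derived from a hepatoblastoma, and in BE(2)-C, a neuroblastoma line. Each line gave 3 poly-A-enriched libraries from cells that received a control siRNA (siC) and 3 from cells that received an siRNA pool against IGF2BP1 (siI1), all harvested at 72 h. Per the methods, the siRNA concentration was higher in BE(2)-C than in Hep-G2, and the control siRNA had the sequence of a worm microRNA. Values are FPKM, reads scaled to gene length and to library size, and each of the 12 libraries held between 12852988 and 15721210 reads on genes.

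Growth factor receptors activate RAS, RAF, MEK and ERK in turn, and active ERK raises the transcription of genes that turn the same cascade down. Among them, DUSP phosphatases remove the activating phosphates from ERK, and Sprouty and SPRED proteins act upstream on RAS and RAF. The other genes of the set, ETV4 and ETV5, encode ETS family transcription factors that are induced by FGF signalling. CIC, a transcriptional repressor of ETV and DUSP genes, is itself inactivated by ERK signalling, and the RNA levels of these genes are widely used as readouts of ERK pathway output in tumor cells.

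The libraries matched their labels. IGF2BP1 itself was at 48.5, 46.6 and 50.8 FPKM in the siC libraries and at 12.6, 10.7 and 10.7 FPKM in the siI1 libraries of Hep-G2, and at 21.3, 20.6 and 21.6 FPKM in the siC libraries and at 4.85, 4.75 and 4.87 FPKM in the siI1 libraries of BE(2)-C. Every siI1 library lay below every siC library in both lines, and IGF2BP1 fell, with a log2 difference of -2.10, SE 0.079, adjusted p = 7.8e-06, for Hep-G2, against -2.11, SE 0.048, adjusted p = 1.5e-05, for BE(2)-C (limma). The difference between the lines was 0.016 (SE 0.092, adjusted p = 0.91) and did not pass the test. IGF2BP1 also overlaps other listed genes on both strands, which reached at most 8.58 FPKM in Hep-G2. All 9 hepatic markers, among them ALB, AFP and HNF4A, were at 1 FPKM or more in every Hep-G2 library, while in BE(2)-C 7 of 9 stayed below 0.1 FPKM and AFP, FGB and HNF4A were at 0. All 9 markers of noradrenergic neuroblastoma, led by MYCN, were at 1 FPKM or more in every BE(2)-C library, while in Hep-G2 8 of 9 stayed below 0.1 FPKM and HAND2, ISL1 and CHGA were among those at 0.

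Of 7 markers of blood, endothelial and fibroblast cells, CD14 was the most abundant in Hep-G2, with values from 0.683 to 2.31 FPKM. Their summed level in Hep-G2 was 0.854, 1.10 and 0.861 FPKM in siC and 2.83, 2.28 and 2.32 FPKM in siI1. LUM and DCN led the list in BE(2)-C, PTPRC was at 0, and the sums were 12.2, 11.2 and 13.0 FPKM in siC and 19.8, 21.5 and 20.2 FPKM in siI1. CD14 went the other way there and fell from 1.89 to 0.774 FPKM in the mean, while LUM, DCN and, in Hep-G2, CD14 rose (limma). The summed hepatic markers of Hep-G2, with ALB the most abundant, were 7644, 7599 and 7574 FPKM in siC and 12105, 13629 and 13797 FPKM in siI1. Among these markers, ALB, APOA1, SERPINA1, FGB and HNF4A rose, AFP and TTR fell, and APOB did not pass (limma). The mean of AFP was 1563 FPKM in siC and 1040 FPKM in siI1, that of TTR 107 and 63.5 FPKM, and that of APOB 562 and 421 FPKM. The parts of these marker differences in the results were not tested. In bulk RNA, fewer cells of a kind and less RNA per cell cannot be told apart. The methods call the libraries biological replicates, and p-values measure the spread between them.

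In Hep-G2, siI1 replicate 1 stood somewhat apart. Over the 11247 genes at 1 FPKM or more in every Hep-G2 library, the SD of its log2 differences was 0.302 from replicate 2 and 0.311 from replicate 3, against 0.194 between replicates 2 and 3. Its differences from them went with gene length, with correlations across genes of 0.31 and 0.30 with log2 length, where genes are not independent replicates. Among the siC libraries, the same correlation was 0.26 for replicate 1 minus replicate 2 and -0.22 for replicate 2 minus replicate 3, with SDs of 0.22 and 0.213. The siI1 to siC difference also went with length in Hep-G2, with a median of 0.18 for 2631 genes shorter than the 10 feedback genes, -0.071 for 6712 genes within their range of 2615 to 8260 nt and -0.22 for 1904 longer genes. The same medians of BE(2)-C were -0.075, -0.035 and 0.077, and the part of length in the results was not tested. For the feedback genes in Hep-G2, log2 differences are therefore also given without siI1 replicate 1 and with each library centred by gene length, an alternative chosen after seeing the data.

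DUSP6 encodes a cytoplasmic phosphatase that is specific for ERK. In Hep-G2, it was at 33.6, 34.2 and 35.4 FPKM in the siC libraries and at 2.91, 3.08 and 2.91 FPKM in the siI1 libraries. All siI1 libraries lay far below all siC libraries, and replicates within a group differed little. The mean went from 34.4 ± 0.909 FPKM in siC to 2.97 ± 0.103 FPKM in siI1 (SD, n = 3), which is 11.6-fold lower, and the log2 difference was -3.49 (SE 0.056). It was -3.48 without siI1 replicate 1 and -3.42 with length centring. DUSP6 in BE(2)-C was at 1.40, 1.57 and 1.57 FPKM in the siC libraries and at 1.06, 1.16 and 1.31 FPKM in the siI1 libraries. The level was low in this line and the siI1 libraries lay slightly below the siC libraries, with a log2 difference of -0.34 (SE 0.13).

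Promoter windows of 300 bases, with 250 bases before the start site and 50 after it, came from RefSeq (GRCh38.p14) and matched 6 of the 10 genes with 10 windows in all, without DUSP4, DUSP5, ETV4 and ETV5. The windows of DUSP6 (chr12:89352452-89352751, minus strand) and SPRY4 (chr5:142324198-142324497, minus strand) are shown because these genes had the largest differences of the 10. A window of SPRED2 (chr2:65366729-65367028, minus strand) is shown because it held a motif. The SPRY4 and SPRED2 windows shown lie inside the gene spans given below. The other SPRED2 window, at the 5′ end of the span (chr2:65432550-65432849), held none of the motifs searched. Both strands were searched for the CIC octamers TGAATGAA, TGAATGGA, TCAATGAA and TCAATGGA, the ETS motif CCGGAAGT, the CRE TGACGTCA and the AP-1 motif TGANTCA, none of which overlap each other in the windows shown. The octamers TCAATGAA and TCAATGGA were added to the search after the match in the DUSP6 window had been seen, so that nothing is drawn from it. Sequences are given 5′ to 3′ along the gene, and capitals mark the CIC octamer TCAATGGA on the opposite strand at DUSP6 and the AP-1 motif at SPRED2.
DUSP6: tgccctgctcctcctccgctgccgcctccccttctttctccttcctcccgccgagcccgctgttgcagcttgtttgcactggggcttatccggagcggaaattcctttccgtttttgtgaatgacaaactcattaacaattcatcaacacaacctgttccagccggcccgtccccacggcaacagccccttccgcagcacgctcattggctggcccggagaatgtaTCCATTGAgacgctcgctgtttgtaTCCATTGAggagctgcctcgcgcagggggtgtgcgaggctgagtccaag
SPRY4: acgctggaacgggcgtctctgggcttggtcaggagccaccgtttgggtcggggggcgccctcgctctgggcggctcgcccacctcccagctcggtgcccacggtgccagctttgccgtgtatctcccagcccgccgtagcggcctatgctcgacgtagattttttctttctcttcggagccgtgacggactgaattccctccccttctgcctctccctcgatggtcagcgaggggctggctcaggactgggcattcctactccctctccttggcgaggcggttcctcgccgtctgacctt
SPRED2: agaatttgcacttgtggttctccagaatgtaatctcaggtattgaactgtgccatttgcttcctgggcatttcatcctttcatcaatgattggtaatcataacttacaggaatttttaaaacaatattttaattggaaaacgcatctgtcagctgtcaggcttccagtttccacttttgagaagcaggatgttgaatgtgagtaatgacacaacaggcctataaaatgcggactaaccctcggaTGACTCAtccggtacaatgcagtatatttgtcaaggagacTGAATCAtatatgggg
At least 1 of the 4 CIC octamers was present in 1 of the 10 windows and in 3.77% of all 35116 windows, and TCAATGGA alone in 0.51% of them. Without the added octamers, none of the 10 windows held one, beside 1.65% of all windows for TGAATGAA and 1.03% for TGAATGGA. The AP-1 motif occurred in 1 of the 10 windows, at SPRED2, and in 7.71% of all windows, while the ETS motif and the CRE were in none of the 10 and in 4.14% and 1.85% of all. A match describes these letters, and a window without one says nothing of the factor.

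DUSP5 encodes a nuclear ERK phosphatase. In Hep-G2, it was at 24.4, 28.8 and 28.1 FPKM in the siC libraries and at 4.67, 5.59 and 5.26 FPKM in the siI1 libraries. The groups did not overlap, the mean was 5.24-fold lower in siI1 and the log2 difference was -2.37 (SE 0.094). DUSP5 in BE(2)-C was at 1.97, 2.15 and 1.97 FPKM in the siC libraries and at 1.43, 1.11 and 1.71 FPKM in the siI1 libraries. These levels rest on 74, 72 and 72 reads in siC and 58, 41 and 62 reads in siI1, the siI1 libraries were lower and more spread, and the log2 difference was -0.51 (SE 0.16). The pseudogene DUSP5P1, listed separately, reached 3.73 FPKM in Hep-G2.

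DUSP4 encodes a nuclear phosphatase that acts on ERK and on other MAP kinases. It was the least abundant of the 10 genes in Hep-G2, at 1.57, 1.58 and 1.63 FPKM in the siC libraries and at 0.204, 0.199 and 0.247 FPKM in the siI1 libraries, from 177, 156 and 174 reads and 20, 21 and 24 reads. All siI1 libraries were lower, the mean was 7.35-fold lower and the log2 difference was -2.42 (SE 0.18), and was -1.09 with a pseudocount of 1. DUSP4 in BE(2)-C was among the most abundant of the 10, at 20.4, 20.2 and 20.9 FPKM in the siC libraries and at 26.5, 27.5 and 25.8 FPKM in the siI1 libraries. Here all siI1 libraries were above all siC libraries, by 1.30-fold in the mean and 0.37 (SE 0.044) on the log2 scale.

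SPRY4 belongs to the Sprouty family, inhibitors of receptor tyrosine kinase signalling. In Hep-G2, it was at 19.7, 21.6 and 21.1 FPKM in the siC libraries and at 2.03, 1.76 and 1.70 FPKM in the siI1 libraries. The siI1 libraries were all far lower, the mean went from 20.8 ± 0.990 FPKM in siC to 1.83 ± 0.176 FPKM in siI1 (SD, n = 3), 11.4-fold lower, and the log2 difference was -3.44 (SE 0.087). It was -3.51 without siI1 replicate 1 and -3.33 with length centring. SPRY4 in BE(2)-C was at 21.1, 20.2 and 21.8 FPKM in the siC libraries and at 30.8, 30.1 and 30.8 FPKM in the siI1 libraries. There all siI1 libraries were above all siC libraries, 1.45-fold in the mean, with a log2 difference of 0.54 (SE 0.044).

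The other Sprouty genes differed from SPRY4 in size. SPRY2 was at 5.53, 6.11 and 5.53 FPKM in the siC libraries and at 2.00, 2.17 and 1.72 FPKM in the siI1 libraries of Hep-G2, a log2 difference of -1.50 (SE 0.11). The BE(2)-C level was at 19.4, 18.9 and 18.9 FPKM in the siC libraries and at 26.0, 27.8 and 25.5 FPKM in the siI1 libraries, a log2 difference of 0.47 (SE 0.048). The libraries of both groups were apart in each line, and in opposite directions. SPRY1 was at 8.73, 9.15 and 9.63 FPKM in the siC libraries and at 4.37, 3.69 and 3.28 FPKM in the siI1 libraries of Hep-G2, with a log2 difference of -1.26 (SE 0.11). This was the smallest difference among the 10 genes in Hep-G2 with the pseudocount of 0.1, while with a pseudocount of 1 both SPRY1 and DUSP4 were at -1.09. SPRY1 in BE(2)-C had 3, 4 and 3 reads in siC and 2, 3 and 1 reads in siI1, did not pass the filter on low values, and no difference was detectable at this depth.

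SPRED1 and SPRED2 bind neurofibromin and hold down RAS activity. SPRED1 was at 4.02, 3.71 and 4.22 FPKM in the siC libraries and at 1.495, 0.989 and 1.11 FPKM in the siI1 libraries of Hep-G2. The mean was 3.32-fold lower in siI1, and the log2 difference was -1.67 (SE 0.16) with all libraries, -1.83 without siI1 replicate 1 and -1.50 with length centring. The BE(2)-C level was at 3.81, 4.33 and 4.31 FPKM in the siC libraries and at 5.44, 5.94 and 5.61 FPKM in the siI1 libraries, a log2 difference of 0.44 (SE 0.079). SPRED2 was at 20.0, 18.3 and 20.2 FPKM in the siC libraries and at 8.45, 6.78 and 7.01 FPKM in the siI1 libraries of Hep-G2, a log2 difference of -1.39 (SE 0.095). The level in BE(2)-C was at 10.2, 10.3 and 10.3 FPKM in the siC libraries and at 13.0, 11.6 and 12.3 FPKM in the siI1 libraries, a log2 difference of 0.26 (SE 0.056). For both genes the groups were apart in each line, with siI1 the lower group of Hep-G2 and the upper group of BE(2)-C.

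ETV4 and ETV5 are PEA3-type ETS factors that activate genes downstream of FGF and ERK signalling. ETV4 was the most abundant of the 10 genes in siC cells of both lines. In Hep-G2, it was at 67.4, 72.8 and 71.1 FPKM in the siC libraries and at 11.3, 13.1 and 14.4 FPKM in the siI1 libraries. The groups did not overlap, the mean was 5.46-fold lower in siI1 and the log2 difference was -2.45 (SE 0.092). ETV4 in BE(2)-C was at 29.3, 24.6 and 28.3 FPKM in the siC libraries and at 23.8, 22.8 and 19.8 FPKM in the siI1 libraries, a log2 difference of -0.31 (SE 0.092), with groups apart but close. ETV5 was at 15.9, 16.0 and 15.6 FPKM in the siC libraries and at 3.34, 3.09 and 2.58 FPKM in the siI1 libraries of Hep-G2, a mean 5.27-fold lower in siI1 and a log2 difference of -2.37 (SE 0.10). The BE(2)-C level was at 13.6, 12.6 and 13.5 FPKM in the siC libraries and at 16.0, 15.2 and 15.3 FPKM in the siI1 libraries, a log2 difference of 0.23 (SE 0.052) in the other direction.

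**Figure D1:**
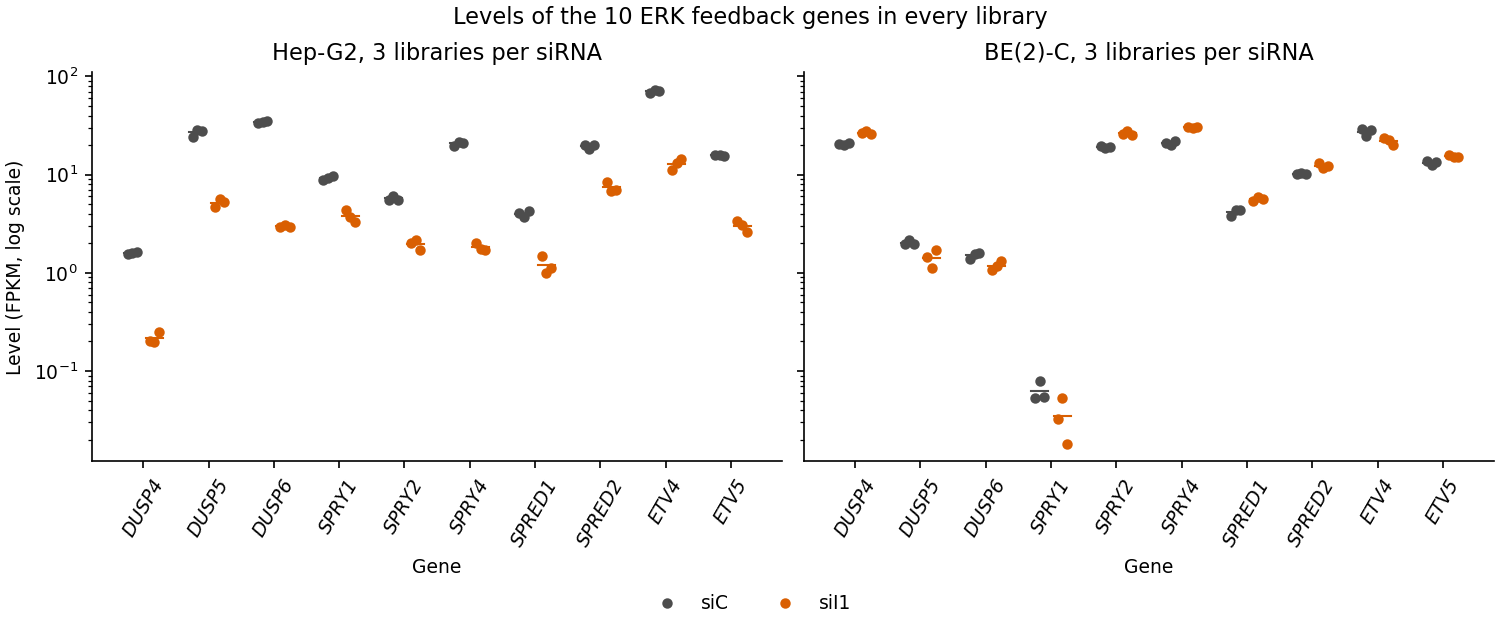
FPKM of each of the 10 genes on a log axis in Hep-G2 (left) and BE(2)-C (right), with 1 point for each of the 3 siC and 3 siI1 libraries and a line at the mean. In Hep-G2 the siI1 points lie below the siC points for all 10 genes, while in BE(2)-C they lie above for 6 and below for 3, and SPRY1 is near 0.

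In Hep-G2, every siI1 library was below every siC library for 10 of 10 genes. The same held for 27.8% of the 19436 genes tested there, while the opposite, which none of the 10 showed, held for 28.0%. Nothing is read from these counts, since the differences chose the set. For 6 of 10 genes, the BE(2)-C libraries of siI1 all exceeded those of siC, beside 22.6% of the 18656 genes tested, and for 3 they all lay below, beside 22.4%, while SPRY1 overlapped. The 6 were below in Hep-G2 and above in BE(2)-C, a pattern of 5.60% of the 15362 genes tested in both, from which nothing is read. The filter on low values was passed by all 10 genes in Hep-G2, and by 9 of them in BE(2)-C. The median log2 difference of the genes that passed was -2.37 in Hep-G2, from -3.49 to -1.26, beside 0.0069 over all tested genes. For BE(2)-C it was 0.26, from -0.51 to 0.54, beside 0.016. Without siI1 replicate 1, the Hep-G2 log2 differences not given above were -2.39 for DUSP4, -2.30 for DUSP5, -1.37 for SPRY1, -1.52 for SPRY2, -1.49 for SPRED2, -2.35 for ETV4 and -2.44 for ETV5. With length centring they were -2.29 for DUSP4, -2.47 for DUSP5, -1.24 for SPRY1, -1.56 for SPRY2, -1.30 for SPRED2, -2.45 for ETV4 and -2.26 for ETV5. All stayed negative. Ranked from the lowest log2 difference, DUSP6 was gene 21, SPRY4 gene 24 and SPRY1 gene 1053 of 19436 in Hep-G2. The summed level of the 10 genes was 201, 212 and 213 FPKM in siC and 40.7, 40.5 and 40.2 FPKM in siI1 of Hep-G2, and 121, 115 and 122 FPKM in siC and 144, 143 and 138 FPKM in siI1 of BE(2)-C.

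**Figure D2:**
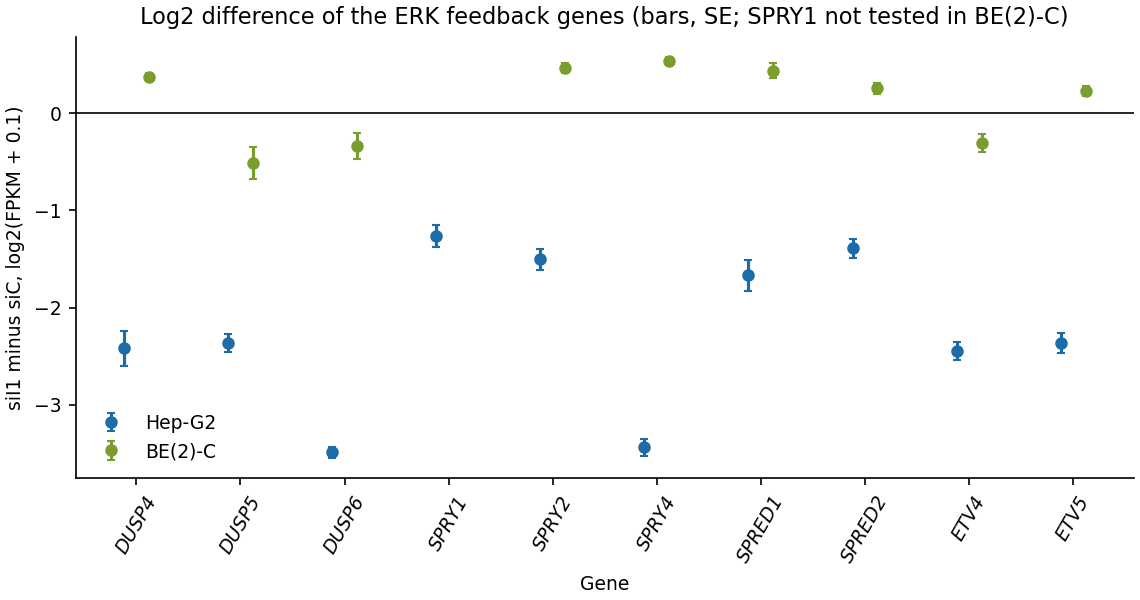
Log2 difference, siI1 minus siC on the log2(FPKM + 0.1) scale, of each gene in Hep-G2 and BE(2)-C, with bars for the SE of the fit (3 libraries per group). Hep-G2 values run from -3.49 to -1.26 and BE(2)-C values from -0.51 to 0.54, and SPRY1 is not drawn in BE(2)-C, where it was not tested.

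The order of the levels differed between lines and siRNAs. In siC cells of Hep-G2, ETV4 was followed by DUSP6, DUSP5, SPRY4, SPRED2, ETV5, SPRY1, SPRY2, SPRED1 and DUSP4. Of these neighbours, only SPRY4 and SPRED2 overlapped between libraries. In siI1 cells of Hep-G2 the order was ETV4, SPRED2, DUSP5, SPRY1, ETV5, DUSP6, SPRY2, SPRY4, SPRED1 and DUSP4, where SPRY1 and ETV5, ETV5 and DUSP6, and SPRY2 and SPRY4 overlapped. DUSP6 and SPRY4 thus moved from place 2 and 4 to place 6 and 8. In siC cells of BE(2)-C the order was ETV4, SPRY4, DUSP4, SPRY2, ETV5, SPRED2, SPRED1, DUSP5, DUSP6 and SPRY1, with SPRY4 and DUSP4 overlapping. In siI1 cells of BE(2)-C, SPRY4, DUSP4 and SPRY2 came before ETV4, followed by ETV5, SPRED2, SPRED1, DUSP5, DUSP6 and SPRY1, and overlap was found for DUSP4 with SPRY2 and DUSP5 with DUSP6. Since the tables were normalized separately, levels were not tested between the lines.

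The 6 lists of related genes below were not part of the selected set. Every gene outside the set that met the rule for naming and passed the test, 31 in Hep-G2 and 21 in BE(2)-C with IGF2BP1 included, had all 3 siI1 libraries on the same side of all 3 siC libraries, as did 99.1% of all genes that passed in Hep-G2 and 99.9% of those of BE(2)-C. Passing the test nearly fixes this, and nothing is read from it. Of 10 listed paralogs, 7 were tested in Hep-G2, of which 3 fell and 4 rose, and 9 in BE(2)-C, of which 4 fell, none rose (1 without siC replicate 3) and 5 did not pass. Their median log2 difference was 0.50 for Hep-G2 against -0.061 for BE(2)-C. DUSP9, a cytoplasmic ERK phosphatase like DUSP6, was at 147, 153 and 144 FPKM in the siC libraries and at 332, 390.3 and 399 FPKM in the siI1 libraries of Hep-G2. It rose by a log2 difference of 1.33, SE 0.086, adjusted p = 4.8e-05 (limma), higher in 3 of 3 siI1 libraries. At its low level in BE(2)-C, DUSP9 fell, from 1.30 to 0.379 FPKM in the mean (log2 -1.57, SE 0.36, adjusted p = 0.019), a call lost without siC replicate 2 or 3 (adjusted p from 0.017 to 0.057 over the 6 fits that left out a library). The difference between the lines was 2.90 (SE 0.38, adjusted p = 0.00013). DUSP8, a phosphatase of JNK and p38, rose from 1.13 to 3.17 FPKM in Hep-G2 (log2 1.41, SE 0.15, adjusted p = 0.00044) and fell from 2.04 to 1.27 FPKM in BE(2)-C (log2 -0.64, SE 0.13, adjusted p = 0.011). DUSP16, also a phosphatase of JNK and p38, fell in both lines, with a log2 difference of -1.04, SE 0.073, adjusted p = 6.8e-05, in Hep-G2 and of -0.49, SE 0.089, adjusted p = 0.0074, in the neuroblastoma line. SPRED3 fell from 1.17 to 0.254 FPKM in Hep-G2 (log2 -1.85, SE 0.19, adjusted p = 0.00035), but was at 0.446 and 0.468 FPKM in BE(2)-C with overlapping groups.

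**Figure D3:**
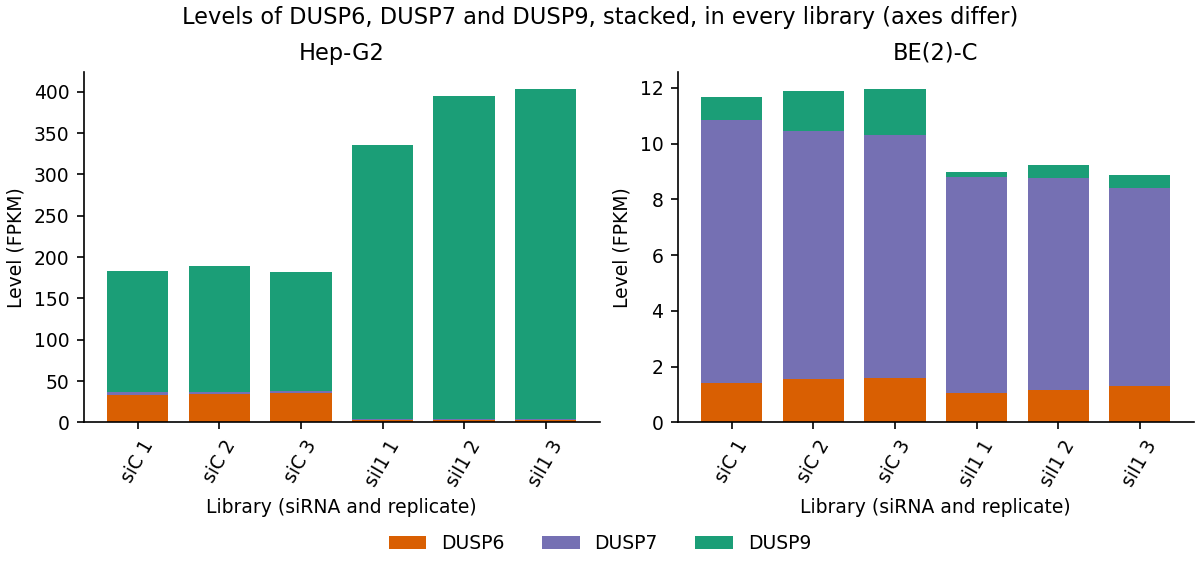
Stacked levels in FPKM of the cytoplasmic ERK phosphatases DUSP6, DUSP7 and DUSP9 in each library, Hep-G2 on the left and BE(2)-C on the right with different axes. The Hep-G2 sum goes from a mean of 185 FPKM in siC to 378 FPKM in siI1, with DUSP9 higher and DUSP6 and DUSP7 lower, and the BE(2)-C sum is 11.8 FPKM in siC and 9.03 FPKM in siI1.

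DUSP9 was more abundant than DUSP6 in Hep-G2. The summed level of DUSP6, DUSP7 and DUSP9, the cytoplasmic ERK phosphatases, was 183, 189.6 and 182 FPKM in siC and 336, 395 and 404 FPKM in siI1. The sum was higher in every siI1 library through DUSP9 alone, since DUSP6 was lower and DUSP7, the least abundant of them in siC cells, fell from 2.48 to 1.33 FPKM (log2 -0.85, SE 0.11, adjusted p = 0.00089). DUSP7 is named here after its values were seen. The summed level of SPRY1 to SPRY4 was 34.0, 36.9 and 36.3 FPKM in siC and 8.41, 7.64 and 6.73 FPKM in siI1 of Hep-G2, and 40.6, 39.2 and 40.7 FPKM and 56.9, 58.0 and 56.3 FPKM in BE(2)-C. This summed level was lower in every siI1 library of Hep-G2, and the reverse held for BE(2)-C.

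Genes induced by ERK outside the feedback set were examined next. Of 15 listed, 14 were tested in Hep-G2, of which 12 fell, 1 rose and 1 did not pass, and 12 in BE(2)-C, of which 4 fell and 8 did not pass. EGR3, named for this after its values were seen, is 1 of the 12, but had 16, 18 and 17 reads in siC and 0 in every siI1 library of Hep-G2 and passed the filter on low values through siC alone, so no direction is read from it. With equal sums of FPKM, 12 were lower and 0 higher in Hep-G2 (limma). The median log2 difference was -1.36 for Hep-G2 against -0.33 for BE(2)-C. EGR1, an immediate early transcription factor, was at 9.59, 11.1 and 10.2 FPKM in the siC libraries and at 0.683, 0.744 and 0.620 FPKM in the siI1 libraries of Hep-G2 and fell (log2 -3.73, SE 0.11, adjusted p = 3.3e-06, limma). It also fell in BE(2)-C, from 19.6 to 8.97 FPKM (log2 -1.12, SE 0.13, adjusted p = 0.0014), and the difference between the lines was -2.61 (SE 0.17, adjusted p = 1.2e-06). FOSL1, an AP-1 subunit, fell in Hep-G2 from 17.1 to 3.36 FPKM (log2 -2.33, SE 0.14, adjusted p = 3.3e-05) and was not tested in BE(2)-C for its low level. IER2, an immediate early gene, fell in both lines, with log2 differences of -0.57, SE 0.086, adjusted p = 0.0019, for Hep-G2 against -0.84, SE 0.062, adjusted p = 0.00029, for BE(2)-C. CCND1, the cyclin D1 gene, was the 1 that rose in Hep-G2, from 123 to 145 FPKM (log2 0.23, SE 0.050, adjusted p = 0.0092), a call lost when libraries were scaled to equal sums of FPKM (adjusted p = 0.38, and from 0.00067 over the other settings).

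Receptors and their ligands were next. Of 17 genes of the FGF group, 11 were tested in Hep-G2, of which 2 fell, 5 rose and 4 did not pass, and 12 in BE(2)-C, of which 3 fell, 1 rose (2 without siC replicate 2) and 8 did not pass. FLRT2, named for this after its values were seen, is 1 of the 5 but passed the filter on low values through siI1 alone, at 0.0424, 0.0610 and 0.0913 FPKM in siC and 0.424, 0.368 and 0.409 FPKM in siI1, so no direction is read from it. FGFR1 fell in Hep-G2 from 6.35 to 2.05 FPKM (log2 -1.59, SE 0.078, adjusted p = 1.8e-05) and was at 7.63 and 8.46 FPKM in BE(2)-C, a difference between lines of -1.74 (SE 0.097, adjusted p = 4.3e-07). FGFR3 rose in Hep-G2 from 39.5 to 67.8 FPKM (log2 0.78, SE 0.043, adjusted p = 2.7e-05), as did KLB, the co-receptor beta-klotho, from 17.3 to 29.0 FPKM (log2 0.74, SE 0.11, adjusted p = 0.0018). IL17RD, an inhibitor of FGF signalling, rose in BE(2)-C from 0.751 to 1.80 FPKM (log2 1.17, SE 0.16, adjusted p = 0.0025). FGFR4 fell in BE(2)-C from 1.52 to 0.668 FPKM (log2 -1.12, SE 0.29, adjusted p = 0.026), a call lost without siC replicate 1 or 3 or siI1 replicate 2 or 3 (adjusted p from 0.015 to 0.078 over the 6 fits that left out a library) and under 1 of 10 other settings (adjusted p from 4.5e-05 to 0.051). In Hep-G2, FGFR4 rose from 52.4 to 66.1 FPKM (log2 0.33, SE 0.051, adjusted p = 0.0019). FRS3, an adaptor of FGF receptors, fell in BE(2)-C too (log2 -0.58, SE 0.15, adjusted p = 0.031), a call lost without siC replicate 1 or 3 or siI1 replicate 2 or 3 (adjusted p from 0.02 to 0.091 over the 6 fits that left out a library) and under 2 of 10 other settings (adjusted p from 0.0043 to 0.054). In Hep-G2, FRS3 rose (log2 0.57, SE 0.11, adjusted p = 0.0057). None of the 3 BE(2)-C genes called lower passed without siC replicate 1 or 3 or without siI1 replicate 2 or 3. FGFRL1, an FGF receptor without a kinase domain, fell in Hep-G2 (log2 -0.20, SE 0.064, adjusted p = 0.04), a call lost without siC replicate 1 or 3 or siI1 replicate 1, 2 or 3 (adjusted p from 0.03 to 0.14 over the 6 fits that left out a library) and under 4 of 10 other settings (adjusted p from 0.0084 to 0.1). In BE(2)-C, FGFRL1 is counted among the 3 genes called lower, but it had 8, 12 and 8 reads in siC and 2, 1 and 1 reads in siI1 and passed the filter on low values through siC alone. Its call there was lost without siI1 replicate 1, 2 or 3 (adjusted p from 0.096 to 0.12 over the 3 fits that left out a library) and under 3 of 9 other settings (adjusted p from 0.0032 to 0.098), and no direction is read from it.

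Of 13 other receptor tyrosine kinases, 7 were tested in Hep-G2, of which 2 fell, 2 rose and 3 did not pass, and 10 in BE(2)-C, of which none fell (1 without siC replicate 2), 6 rose and 4 did not pass. The Hep-G2 shares, 28.6% lower and 28.6% higher, were near the 23.0% and 21.9% of all tested genes. The Hep-G2 counts were 4 lower and 1 higher when libraries were scaled to equal sums of FPKM. PDGFRA, named for this after its values were seen, is 1 of the 6 of BE(2)-C but passed the filter on low values through siI1 alone, at 0.0787, 0.0802 and 0.0441 FPKM in siC and 0.359, 0.480 and 0.370 FPKM in siI1, so no direction is read from it. EGFR, the EGF receptor, fell in Hep-G2 from 11.8 to 5.83 FPKM (log2 -1.02, SE 0.13, adjusted p = 0.001) and rose in BE(2)-C from 11.8 to 19.0 FPKM (log2 0.68, SE 0.049, adjusted p = 0.00029), with a difference between lines of -1.69 (SE 0.15, adjusted p = 8.4e-06). MET, the receptor of hepatocyte growth factor, fell in Hep-G2 from 17.6 to 7.56 FPKM (log2 -1.22, SE 0.11, adjusted p = 0.00022). ERBB2 rose there from 12.6 to 27.6 FPKM (log2 1.12, SE 0.059, adjusted p = 2.3e-05). ALK, a receptor altered in neuroblastoma, rose in BE(2)-C from 2.40 to 3.91 FPKM (log2 0.68, SE 0.098, adjusted p = 0.0029). ERBB3, a receptor of neuregulins, rose in Hep-G2 as well (log2 0.18, SE 0.056, adjusted p = 0.033), a call lost without siC replicate 1, 2 or 3 or siI1 replicate 2 or 3 (adjusted p from 0.037 to 0.11 over the 6 fits that left out a library) and under 2 of 10 other settings (adjusted p from 0.00038 to 0.88).

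The list of the cascade itself, from adaptors to ERK, held 20 genes, all of which were tested in both lines. Of these, 3 rather than 5 were lower in BE(2)-C without siI1 replicate 2 or 3, and 1 rather than 2 higher without any 1 of its siI1 libraries. In Hep-G2, 6 fell, 4 rose and 10 did not pass, with a median log2 difference of -0.13. These shares, 30.0% lower and 20.0% higher, were near the 23.0% and 21.9% of all tested genes. Equal sums of FPKM gave 9 lower and 2 higher in Hep-G2. In BE(2)-C, 5 fell, 2 rose and 13 did not pass, with a median of -0.059. SHC1, an adaptor of receptors, fell in Hep-G2 from 43.0 to 21.4 FPKM (log2 -1.00, SE 0.047, adjusted p = 1.6e-05) and rose in BE(2)-C from 68.4 to 94.0 FPKM (log2 0.46, SE 0.059, adjusted p = 0.0019), with a difference between lines of -1.46 (SE 0.075, adjusted p = 2.3e-07). NRAS fell in both lines, with log2 differences of -0.82, SE 0.078, adjusted p = 0.00024, for Hep-G2 against -0.48, SE 0.071, adjusted p = 0.0033, for BE(2)-C. MAPK3, the gene of ERK1, rose in Hep-G2 from 14.8 to 26.0 FPKM (log2 0.81, SE 0.073, adjusted p = 0.00019).

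Among CIC and ETS factors, all 12 listed genes were tested in both lines. In Hep-G2, 9 fell, 2 rose and 1 did not pass, with a median log2 difference of -0.78, and in BE(2)-C 4 fell, 2 rose and 6 did not pass, with a median of -0.090. CIC itself rose in Hep-G2 from 7.50 to 10.4 FPKM (log2 0.47, SE 0.063, adjusted p = 0.0011), as did ERF, an ETS repressor, from 25.7 to 38.1 FPKM (log2 0.57, SE 0.049, adjusted p = 0.00016). ETS1 fell in Hep-G2 from 1.18 to 0.162 FPKM (log2 -2.35, SE 0.30, adjusted p = 0.00093) and ELK3 from 15.0 to 3.39 FPKM (log2 -2.12, SE 0.12, adjusted p = 2.6e-05). ELK3 was at 10.4 and 10.8 FPKM in BE(2)-C, a difference between lines of -2.18 (SE 0.15, adjusted p = 1.6e-06). SRF, a partner of ELK factors, fell in both lines, with log2 differences of -1.36, SE 0.072, adjusted p = 2.4e-05, for Hep-G2 against -0.68, SE 0.068, adjusted p = 0.00076, for BE(2)-C. ATXN1L, which stabilizes CIC, fell in both as well, with log2 differences of -1.31, SE 0.12, adjusted p = 0.00022, and -0.49, SE 0.057, adjusted p = 0.0014. Its relative ATXN1 rose in BE(2)-C from 1.07 to 2.36 FPKM (log2 1.07, SE 0.13, adjusted p = 0.0017), as did GABPA, by 0.39, SE 0.062, adjusted p = 0.0042. GABPA, an ETS factor, fell in Hep-G2 (log2 -0.46, SE 0.12, adjusted p = 0.021), a call lost without siC replicate 1 or 3 or siI1 replicate 2 or 3 (adjusted p from 0.0015 to 0.07 over the 6 fits that left out a library). ETS1 fell in BE(2)-C (log2 -0.30, SE 0.069, adjusted p = 0.018), a call lost without siC replicate 2 or 3 or siI1 replicate 1 or 3 (adjusted p from 0.015 to 0.063 over the 6 fits that left out a library). The 4 genes of this list lower in BE(2)-C were 2 without siC replicate 2 or 3 or siI1 replicate 3.

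**Figure D4:**
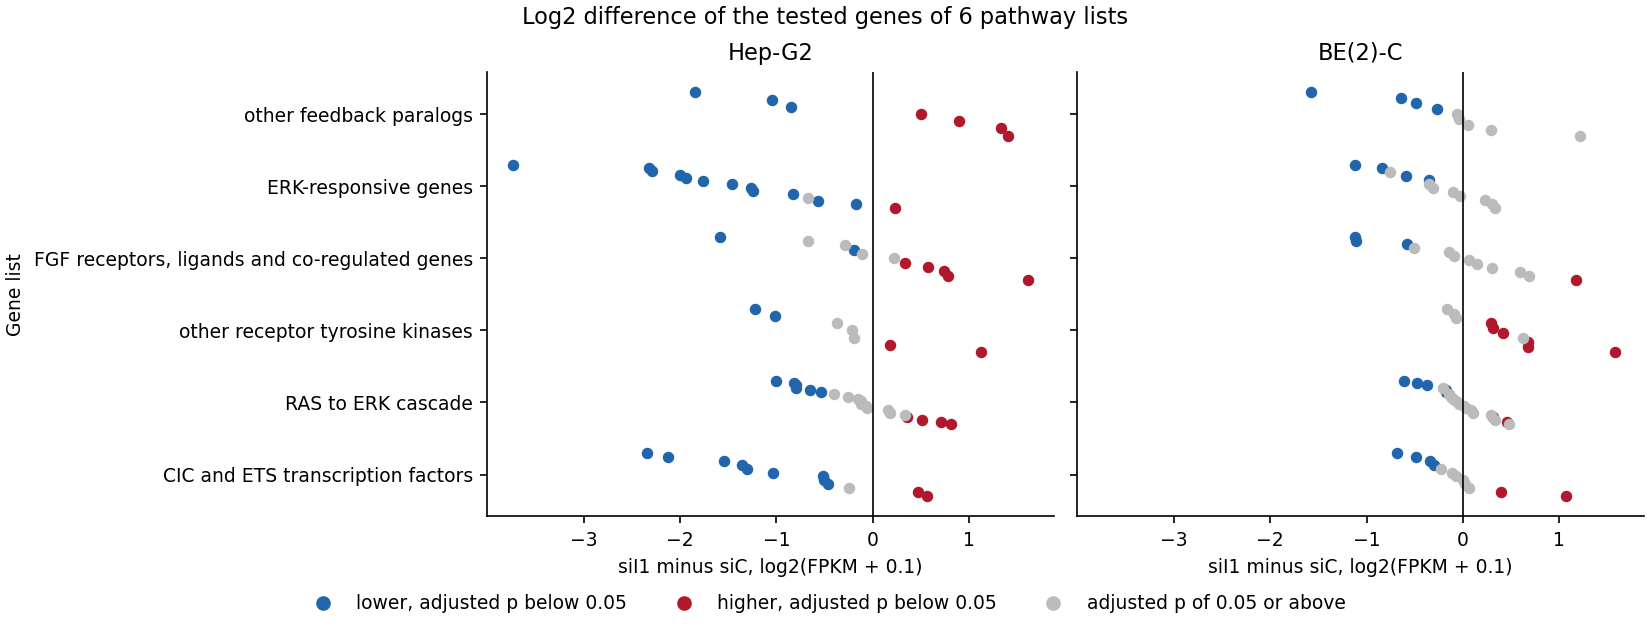
Log2 difference, siI1 minus siC, of every tested gene of the 6 lists in Hep-G2 (left) and BE(2)-C (right), 1 point a gene, colored by direction where adjusted p was below 0.05 (limma). In Hep-G2 the ERK-responsive genes lie mostly left of 0, with 12 of 14 lower, and in BE(2)-C 4 of 12. The 12 in Hep-G2 include EGR3. EGR3 and FLRT2 in Hep-G2, and FGFRL1 and PDGFRA in BE(2)-C, passed the filter on low values through siC or siI1 alone. No direction is read from these.

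Over all 6 lists, 34 of 71 tested genes fell and 18 rose in Hep-G2, against 4463 and 4250 of 19436 over all genes, or 23.0% and 21.9%. Of 75 tested in BE(2)-C, 20 fell and 11 rose, against 2763 (14.8%) and 2489 (13.3%) of 18656 genes. The list counts include EGR3 and FLRT2 in Hep-G2 and FGFRL1 and PDGFRA in BE(2)-C. Each of these passed the filter on low values through siC or siI1 alone, and no direction is read from them. The 20 were 11 without siI1 replicate 3 and 12 without siI1 replicate 2, and the 2489 were 1612, 1523 and 1495 without siI1 replicate 1, 2 and 3. Scaling Hep-G2 libraries to equal sums of FPKM gave 5839 genes lower and 3206 higher, and 40 and 14 of the list genes, as it moved the median log2 difference of all genes from 0.0069 to -0.15. The difference between the lines passed for 41 of 65 list genes tested in both, 27 lower and 14 higher in Hep-G2, beside 6180 of 15362 genes, or 40.2%, in all.

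By a rule applied to 11084 protein-coding genes, those most like DUSP6, SPRY4 and ETV5 were named by the root mean square distance over the 12 libraries of log2(FPKM + 0.1) centred on the siC mean of each line. Nearest to DUSP6 were TGFBR3 (distance 0.20), GPR3 (0.32), RAB3B (0.36), AKAP12 (0.37) and SLC2A1 (0.43). Nearest to SPRY4 were SLC2A1 (0.24), COLGALT2 (0.27), KITLG (0.34), C7 (0.39) and KCNF1 (0.43). Nearest to ETV5 were CDKN2B (0.12), DCBLD2 (0.15), DUSP4 (0.15), ELK3 (0.18) and C7 (0.23). With a pseudocount of 1, 3 of the 5 genes nearest to DUSP6 were shared, 1 of those nearest to SPRY4 and 2 of those nearest to ETV5. Some neighbours had low levels, where the pseudocount of 0.1 understates differences. Means in siC and siI1 of BE(2)-C were 0.179 and 0.118 FPKM for TGFBR3 and 0.126 and 0.107 FPKM for RAB3B. They were 0.247 and 0.312 FPKM for CDKN2B and 0.0638 and 0.200 FPKM for KCNF1. In siI1 of Hep-G2, KCNF1 was at 0.0409 FPKM and GPR3 at 0.0450 FPKM. No shared profile is read from these genes.

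Coordinates are from GENCODE v44 on GRCh38. DUSP4 spans chr8:29333064-29350684, DUSP5 chr10:110497907-110511533 and DUSP6 chr12:89347235-89352501. SPRY1 spans chr4:123396795-123403760, SPRY2 chr13:80335976-80341126 and SPRY4 chr5:142310427-142326455. SPRED1 spans chr15:38252836-38357249 and SPRED2 chr2:65310851-65432637. ETV4 spans chr17:43527844-43579620 and ETV5 chr3:186046314-186110318, and IGF2BP1 spans chr17:48997385-49056145. The ETV4 annotation overlaps DHX8 on the opposite strand, SPRY4 overlaps SPRY4-AS1 and ETV5 overlaps ETV5-AS1 on the opposite strand and DGKG on its own. Per the methods the libraries were strand-specific, while the strand setting of the counting was not given in the sources used here, and the part of overlapping genes was not tested. In Hep-G2, the highest level of DHX8 was 8.26 FPKM and of SPRY4-AS1 1.86 FPKM.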

How the data were processed

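Poly-A-enriched RNA of 12 libraries, 3 for each siRNA and cell line, was analysed. The authors clipped reads with cutadapt 1.14, aligned them to hg38 with HISAT2 2.1.0, counted them per gene on Ensembl with featureCounts 1.5.3 and tested them with edgeR 3.30.3 and TMM. They deposited, per cell line, FPKM values of each library, the gene length in nt as another column, and columns with their log2 fold change, p-value and FDR, which were not used here. The headers state no unit, and FPKM was inferred as follows: 100% of nonzero values times gene length lay within 0.01 of whole multiples of a step per library, which also gave the reads.

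Genes at 0.1 FPKM or more in at least 3 of 6 libraries were tested on log2(FPKM + 0.1), a scale that understates changes of low genes, with limma 3.58.1 in R 4.3.3 (mean-variance trend, two-sided, Benjamini-Hochberg over all tested genes, threshold 0.05). The difference between lines came from 1 fit over all 12 libraries. Each table was normalized on its own, so levels were not tested between lines. An exact test of 3 against 3 libraries cannot give p below 0.1. Named genes, not all of which are described, were the 10 feedback genes, IGF2BP1 and, from each of 6 lists, up to 2 genes per direction and line with the largest log2 difference among those that passed with a mean of at least 1 FPKM in siC or siI1. The genes and lists were chosen with earlier results of these data known. Promoter windows were from RefSeq (GRCh38.p14) and coordinates from GENCODE v44. The fitting was tested on simulated data, where the share of false calls exceeded the threshold over all genes but not among genes at 1 FPKM or more, so calls of genes below 1 FPKM are less certain than their adjusted p. Python 3.11.15, NumPy 2.4.6, pandas 2.3.3 and Matplotlib 3.10.9 were used. Alternatives covered pseudocounts, filters, trend, scaling, a replicate block, left-out libraries, recovered reads and a minimum log2 difference of 1, and centring by gene length, which was added after seeing the data.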

Additional observations from a re-analysis of the deposited data

Results flagged for a closer look

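The siI1 to siC difference of the following genes differed between the cell lines by the interaction test (limma, adjusted p below 0.05), and each value is the log2 difference in Hep-G2 minus that in BE(2)-C. Among paralogs it was 2.04 for DUSP8, 2.90 for DUSP9, -0.55 for DUSP16 and -1.90 for SPRED3. Among ERK-responsive genes it was -2.61 for EGR1 and 0.26 for CCND1. Among genes of the FGF group it was -1.74 for FGFR1, 0.72 for FGFR3, 1.46 for FGFR4, 0.91 for FGFRL1 (0.00060 with a pseudocount of 1, where it did not pass, and in BE(2)-C it passed the filter on low values through siC alone, so no direction is read from it), 1.15 for FRS3 and -1.28 for IL17RD. Among other receptors it was -1.69 for EGFR and 1.19 for ERBB2. In the cascade it was -1.46 for SHC1, -0.34 for NRAS and 0.94 for MAPK3. Among CIC and ETS factors it was 0.54 for CIC, -1.32 for ATXN1, -0.82 for ATXN1L, 0.68 for ERF, -2.18 for ELK3, -2.05 for ETS1, -0.86 for GABPA and -0.68 for SRF.

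For 6 of the feedback genes, every siI1 library was below every siC library in Hep-G2 and above every siC library in BE(2)-C, as for 5.60% of the 15362 genes tested in both lines. The difference between the lines was -2.79 for DUSP4, -1.97 for SPRY2, -3.98 for SPRY4, -2.11 for SPRED1, -1.65 for SPRED2 and -2.59 for ETV5. This difference was not tested, since the genes were chosen by it.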

How the results depend on the processing

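All 10 feedback genes kept a negative log2 difference in Hep-G2, and the 9 tested in BE(2)-C kept their direction, under each of 16 alternatives. Requiring a log2 difference of 1 left, of all Hep-G2 genes, 1340 lower and 1571 higher, and of all BE(2)-C genes 312 and 561. Of the 6 lists it left 21 and 4 for Hep-G2, and 4 and 3 for BE(2)-C. These still count EGR3 and FLRT2 in Hep-G2 and FGFRL1 and PDGFRA in BE(2)-C, from which no direction is read. limma-voom on recovered reads called 19 list genes higher in BE(2)-C. Leaving out a library gave 3401 to 4983 lower and 3228 to 4445 higher of all Hep-G2 genes, and 1936 to 2326 lower and 1495 to 2129 higher of all BE(2)-C genes. The list genes gave 28 to 38 lower and 15 to 18 higher for Hep-G2, and 11 to 17 lower and 8 to 13 higher for BE(2)-C. Genes that differed between the lines numbered 7206 with separate fits and 6600 with a pseudocount of 1.

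Signs reversed, none passing, for IL17RD in Hep-G2 (0.038) and CCND1 in BE(2)-C (0.0041) with length centring, and for the difference between the lines of IGF2BP1 (-0.083) with a pseudocount of 1. Leaving out a BE(2)-C library gave -0.0062 to 0.12 for ELK3, -0.16 to 0.10 for ERBB2, -0.056 to 0.21 for FGFR3 and -0.066 to 0.13 for SPRED3. The cause was not tested. The difference between the lines of IER2 passed with separate fits (0.27) and a pseudocount of 1 (0.29).

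With the replicate block, 4502 were lower and 4318 higher for Hep-G2, and 2531 and 2141 for BE(2)-C. The labels do not say whether the replicate numbers pair the libraries. Same-numbered deviations correlated across genes at 0.06, 0.04 and -0.01 for Hep-G2 and 0.02, -0.01 and 0 for BE(2)-C. With 3 libraries per group, these values cannot exclude pairing, and the main fits used none. Low reads limit SPRY1 in BE(2)-C, with 1 to 4 reads a library.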
